A study of Danio rerio with 9 samples.

Results

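The nr2f genes encode the COUP-TF nuclear receptors, and 6 of them were looked up by symbol in a count table of 22337 zebrafish genes: nr2f1a, nr2f1b, nr2f2, nr2f5, nr2f6a and nr2f6b. All 6 were present, and all 6 passed the filter on low counts. The table came from RNA sequencing of 9 single whole embryos of Danio rerio at about 25 hours post fertilization (hpf), raised at 29 °C without treatment. Every embryo, normal or not, came from natural matings between carriers of genotype zic2aGBT133/+; zic2bUW1127/+, each heterozygous for an allele of zic2a and one of zic2b. They fall into 2 groups by the look of the eye. The normal group has 4 embryos, labelled 3, 4, 6 and 7. The coloboma group has 5, labelled 3 to 7, sorted by coloboma, a defect of the choroid fissure of the eye. The genotype of single embryos was not stated, so each group may mix genotypes. The column names tag the normal embryos WT, without a word on what the tag means.

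COUP-TFs are orphan members of the steroid receptor superfamily that bind direct repeats of a short hormone response element, mostly as repressors, and can compete with retinoic acid receptors for such sites and for their shared partner, the retinoid X receptor (RXR). In the mouse, COUP-TFI and COUP-TFII (encoded by Nr2f1 and Nr2f2) are needed together in the optic vesicle for the optic stalk and ventral eye, and their joint loss gives coloboma. In humans, variants of NR2F1 cause an optic atrophy syndrome. In zebrafish, nr2f1a is required for the atrium of the heart, nr2f2 and nr2f1b have been linked to veins and lymphatic vessels, and nr2f1a, nr2f2 and nr2f5 shape the upper jaw in arch neural crest.

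Library totals ran from 20461180 counts in coloboma embryo 5 to 59233104 in coloboma embryo 6. Defining markers of neurons, skeletal muscle, red cells, endothelium and heart were detected in every embryo, as whole embryos should show. Coloboma embryo 3 stood apart for the lens, where 17 lens genes summed to 74.0 CPM (library-scaled counts) against 1877 to 2837 in the other coloboma and 1099 to 2053 in the normal embryos. It was also the lowest embryo for 24 optic stalk and cup genes (353 CPM, others 440 to 577) and 16 heart genes (196 CPM, others 239 to 383). This embryo was lowest, too, for 11 genes of other NR2 receptors and RXR (163 CPM, others 171 to 209). It was the highest of all embryos for skeletal muscle (88586 CPM, normal embryos up to 58924), jaw and vessel genes, and at neither end for the remaining lists. Of 21293 genes tested over all embryos, 44 (0.207%) passed an adjusted p of 0.05 between coloboma and normal embryos in edgeR's quasi-likelihood fit, 17 (0.0798%) higher and 27 (0.127%) lower. In whole embryos, fewer cells of a type and less RNA per cell cannot be told apart. Each embryo was 1 library, so the spread between replicates holds differences between animals and between libraries, which cannot be told apart.

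All 6 genes were well expressed at this stage. Levels are compared between genes as TPM (the authors' abundances, scaled for transcript length and library). The mean over the 9 embryos was 72.7 TPM for nr2f5, 66.0 TPM for nr2f2, 57.7 TPM for nr2f6b, 56.8 TPM for nr2f1a, 44.7 TPM for nr2f6a and 19.6 TPM for nr2f1b. The first of these lay above 93.1% of all genes in the table and nr2f1b above 75.5%. Only the last step of this order was free of overlap: nr2f6a exceeded nr2f1b in 9 of 9 embryos, and the highest nr2f1b level (32.3 TPM) lay below the lowest nr2f6a level (40.3 TPM). The neighbours nr2f5 and nr2f2, nr2f2 and nr2f6b, nr2f6b and nr2f1a, and nr2f1a and nr2f6a overlapped in range, the higher by mean leading in 6, 7, 6 and 8 of 9 embryos. The family summed to 339 ± 39.2 TPM (SD, n = 4) in the normal group and 300 ± 22.1 TPM (SD, n = 5) in the coloboma group, and the ranges of 304 to 394 and 262 to 316 TPM overlapped. TPM lacks the TMM library scaling used for CPM. On the log2(TPM + 1) scale the median log2 fold change (coloboma over normal) of all genes was itself -0.06.

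**Figure D1:**
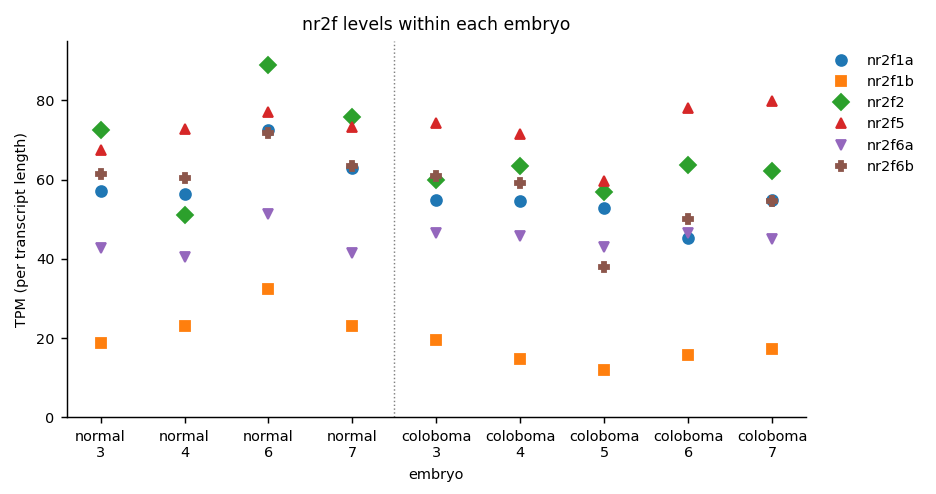
TPM of the 6 nr2f genes (symbols) in each of the 9 embryos, with normal embryos left and coloboma embryos right of the dotted line. The nr2f1b points are the lowest in every embryo, and nr2f5 is the highest in all 5 coloboma embryos while nr2f2 is the highest in 3 of the 4 normal embryos. TPM depends on the assigned transcript length, which for nr2f2 varied among embryos.

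Which member led differed among embryos. In the normal embryos 3, 6 and 7 the highest was nr2f2, at 72.6, 89.0 and 75.7 TPM. In normal embryo 4 and in all 5 coloboma embryos it was nr2f5. The share of nr2f5 in the summed family TPM was 21.5% ± 1.81 (SD, n = 4) in the normal group and 24.2% ± 1.49 (SD, n = 5) in the coloboma group. Its ranges of 19.6% to 23.9% and 22.8% to 26.1% overlapped. The share of nr2f6a did not overlap, at 12.2% to 13.3% in normal and 14.3% to 16.4% in coloboma embryos. No background was counted for this separation. These shares are a description, with no test. The leads and shares rest on TPM, and so on the transcript length assigned to each gene. For nr2f2 and nr2f6a that length varied among embryos (described below), and for nr2f2 it was lowest in normal embryo 3. The part of length in the leads and shares was not tested.

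The comparison of coloboma with normal embryos asked whether the COUP-TF genes differ with the eye defect. None of the 6 passed over all genes tested, against 0.207% of all genes. With other tools, DESeq2 called 1 of the 6 (nr2f1b, lower) and limma voom called 0. DESeq2 called more genes in all, 2.75% of those to which it gave an adjusted p (1.0% lower and 1.75% higher). By edgeR, 1 of 6 (nr2f1b) had an unadjusted p under 0.05, where 11.7% of all genes did. The count was 3 of 6 (nr2f1a, nr2f1b and nr2f6b, all lower) with scaling to total counts only, with limma on each TPM setting, and without coloboma embryo 3. The share of all genes under 0.05 was not counted for these settings, so the 3 of 6 cannot be set against it. Total counts and log2(TPM + 1) also moved the median log2 fold change of all genes to -0.08 and -0.06. The log2 fold change (coloboma over normal) was below 0 for 4 members (49.9% of all genes) and above 0 for 2 (50.1%), with a median of -0.10 beside 0.00075 for all genes tested.

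The largest difference was that of nr2f1b, 1 of the 2 zebrafish counterparts of mammalian NR2F1. Its level, in CPM scaled by TMM factors, was 37.0 CPM in normal embryo 3, 44.6 CPM in 4, 55.3 CPM in 6 and 39.8 CPM in 7. In the coloboma embryos it was 39.9 CPM in embryo 3, 27.8 CPM in 4, 23.7 CPM in 5, 29.8 CPM in 6 and 31.8 CPM in 7. Coloboma embryos 4 to 7 all lay below the lowest normal embryo, and coloboma embryo 3, the one with few lens counts, lay within the normal range, so that the groups overlapped. The normal mean was 44.2 ± 8.08 CPM (SD, n = 4). The coloboma mean was 30.6 ± 6.02 CPM (SD, n = 5). The log2 fold change was -0.53 ± 0.15 (SE; 95% interval -0.87 to -0.19), and the gene ranked 582 by p among all tested (edgeR, adjusted p = 0.202). A two-sided exact permutation test of the CPM over all splits of the embryos into 4 and 5 gave p = 0.0317, and of the TPM p = 0.0159. The smallest p that these splits allow is 0.00794, and 12 such tests (6 genes on 2 scales) were run. With DESeq2 nr2f1b passed (log2 fold change -0.53, adjusted p = 0.0467), and over all 18 alternative settings its adjusted p ran from 0.0467 to 0.508. Of 12 neuron markers, 11 had log2 values below 0, where 49.9% of all genes did. By edgeR 0 passed and 3 had an unadjusted p under 0.05, all lower (4.90% of all genes). DESeq2 called 1 and voom 0. The summed level of these markers was 1122 to 1447 CPM in normal and 933 to 1196 CPM in coloboma embryos. Coloboma embryo 5, the lowest for nr2f1b, was the highest coloboma embryo by this sum (1196 CPM), which weighs the markers by their level. None of the 12 was at 0 in any embryo, and their part in the nr2f1b difference was not tested.

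The other counterpart of NR2F1, nr2f1a, was expressed about 2.25 to 4.44 times as highly as nr2f1b by TPM. It measured 121 CPM in normal embryo 3, 117 CPM in 4, 134 CPM in 6 and 116 CPM in 7. In the coloboma embryos it measured 121 CPM in embryo 3, 111 CPM in 4, 113 CPM in 5, 91.6 CPM in 6 and 109 CPM in 7. Coloboma embryo 6 was lowest, embryo 3 again lay among the normal embryos, and the groups overlapped. The log2 fold change was -0.16 ± 0.09 (SE; 95% interval -0.36 to 0.04; edgeR adjusted p = 0.534; exact permutation, two-sided, p = 0.0714). On the TPM scale the groups did not overlap: the normal embryos held 56.4 to 72.6 TPM and the coloboma embryos 45.1 to 54.8 TPM (exact permutation, two-sided, p = 0.00794, the smallest possible). Of the 6 members only nr2f1a was so separated by TPM, where 3.81% of all genes tested were separated with the coloboma embryos lower, and 0 of 6 by CPM, where 2.16% were. TPM carries no TMM scaling and moved the median of all genes to -0.06 on the log2(TPM + 1) scale. There the limma test across all genes gave nr2f1a a log2 fold change of -0.24 and an adjusted p of 0.360.

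**Figure D2:**
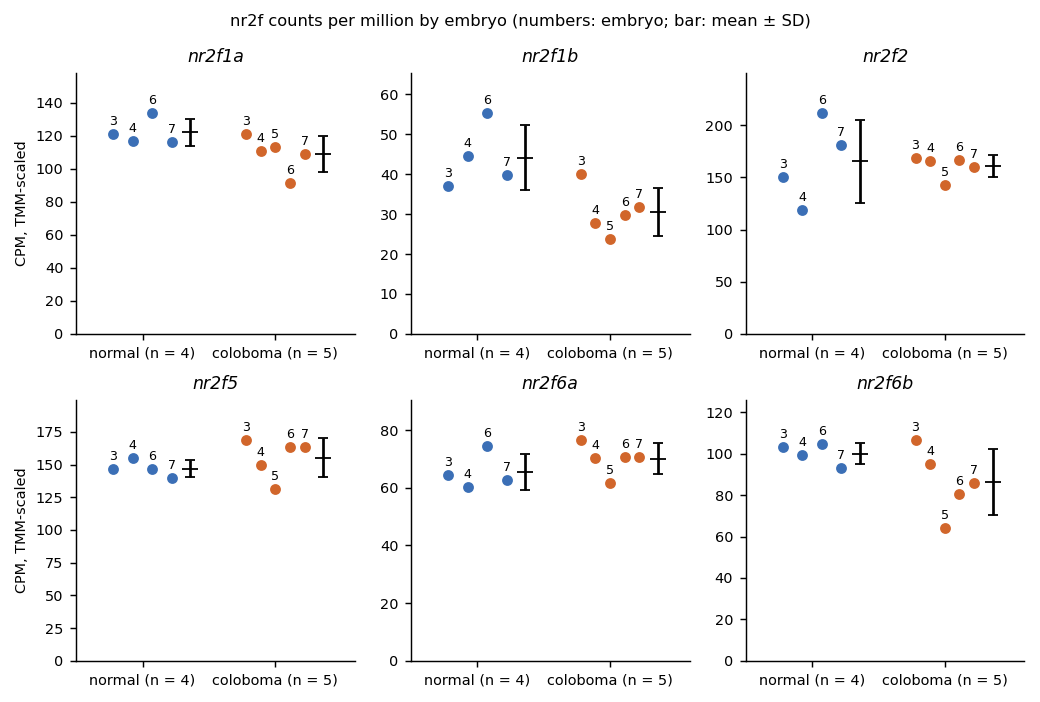
TMM-scaled CPM of each nr2f gene in the normal (blue) and coloboma (orange) embryos. Points carry the embryo number, and black bars give the mean ± SD of each group. For nr2f1b, coloboma embryos 4 to 7 lie below all 4 normal embryos and coloboma embryo 3 does not.

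Of the members tied to veins, heart and jaw, nr2f2 was the most variable among normal embryos. It measured 150 CPM in normal embryo 3, 119 CPM in 4, 212 CPM in 6 and 181 CPM in 7, a coefficient of variation of 24.2%. The coloboma embryos were tighter, at 169 CPM in embryo 3, 166 CPM in 4, 143 CPM in 5, 167 CPM in 6 and 160 CPM in 7, a coefficient of variation of 6.58%. The coloboma values all lay inside the normal range. The log2 fold change was -0.04 ± 0.14 (SE; 95% interval -0.36 to 0.28; edgeR adjusted p = 0.939; exact permutation, two-sided, p = 0.817), which leaves room for a change of up to 1.21-fold higher or to 0.781 of the normal level. Its direction was not fixed: it was 0.10 without normal embryo 6 and 0.01 without normal embryo 7.

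The jaw-patterning member nr2f5 was at 147 CPM in normal embryo 3, 155 CPM in 4, 146 CPM in 6 and 139 CPM in 7. In coloboma embryos it was at 169 CPM in embryo 3, 149 CPM in 4, 131 CPM in 5, 163 CPM in 6 and 163 CPM in 7. Coloboma embryos 3, 6 and 7 lay above every normal embryo and embryo 5 below every one. The log2 fold change was 0.08 ± 0.09 (SE; 95% interval -0.11 to 0.27; edgeR adjusted p = 0.766; exact permutation, two-sided, p = 0.341). It went to -0.0018 when only total counts were used for scaling.

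The remaining pair are counterparts of mammalian NR2F6 (EAR2), the more distant branch of the family. For nr2f6b the normal embryos 3, 4, 6 and 7 measured 103, 99.4, 105 and 93.1 CPM. The coloboma embryos 3, 4, 5, 6 and 7 measured 107, 95.1, 64.3, 80.4 and 86.1 CPM. Coloboma embryos 5, 6 and 7 lay below all normal embryos, embryo 4 was within their range and embryo 3 above it. Its log2 fold change was -0.21 ± 0.13 (SE; 95% interval -0.49 to 0.07; edgeR adjusted p = 0.567; exact permutation, two-sided, p = 0.159). By TPM the same permutation test, 1 of the 12 run, gave p = 0.0476. On the log2(TPM + 1) scale the limma test across all genes gave nr2f6b an adjusted p of 0.386. The edgeR log2 fold change was -0.12 without coloboma embryo 5, a library with 1304 counts for this gene. The counting interval of that library was 60.8 to 67.9 CPM (exact Poisson, 95%, counting error only). The SD among coloboma embryos, this one included, was 15.9 CPM. The part of depth in its low value was not tested.

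The other member of the pair, nr2f6a, measured 64.4, 60.2, 74.6 and 62.7 CPM in normal embryos 3, 4, 6 and 7. In coloboma embryos 3, 4, 5, 6 and 7 it measured 76.6, 70.4, 61.7, 70.7 and 70.8 CPM. The groups overlapped across most of their range. The log2 fold change was 0.10 ± 0.09 (SE; 95% interval -0.10 to 0.29; edgeR adjusted p = 0.722; exact permutation, two-sided, p = 0.270).

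**Figure D3:**
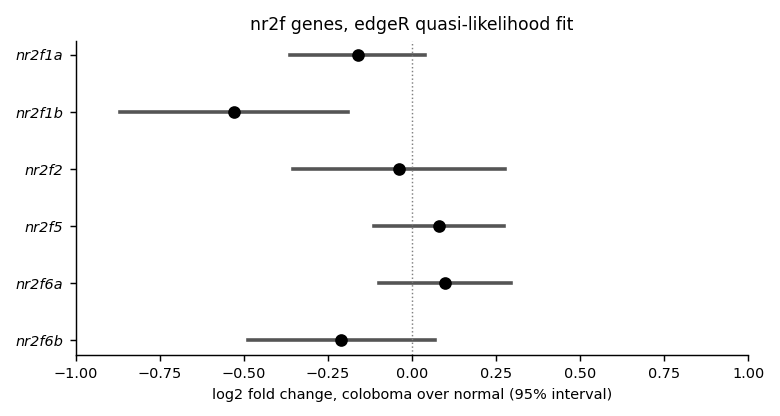
Log2 fold change of each nr2f gene, coloboma over normal, from the edgeR fit over all genes (points), with 95% intervals (lines). The interval of nr2f1b (-0.87 to -0.19) lies below 0 and the other 5 intervals include 0, while no member passed after adjustment over all genes.

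The balance within paralog pairs was then described, without a test, since a ratio of members is a score over the list. In the 4 normal embryos the TPM of nr2f6b was between 1.39 times (embryo 6) and 1.53 times (embryo 7) that of nr2f6a. It was 1.31, 1.29, 0.879, 1.07 and 1.21 times in coloboma embryos 3, 4, 5, 6 and 7. Every coloboma embryo was below every normal embryo. The share of other gene pairs separated in this way was not counted, so this separation cannot be set against a background. The TPM ratio also rests on the transcript length assigned to nr2f6a, which varied among embryos (described below). A further TPM ratio, of nr2f2 over nr2f5, overlapped between the groups. On the CPM scale the same separation was narrow, with a normal range of 1.41 to 1.65 and a coloboma range of 1.04 to 1.39. For nr2f1a over nr2f1b the TPM ratio was 2.61 ± 0.345 (SD, n = 4) in the normal group and 3.40 ± 0.681 (SD, n = 5) in the coloboma group, and the ranges of 2.25 to 3.04 and 2.82 to 4.44 overlapped.

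**Figure D4:**
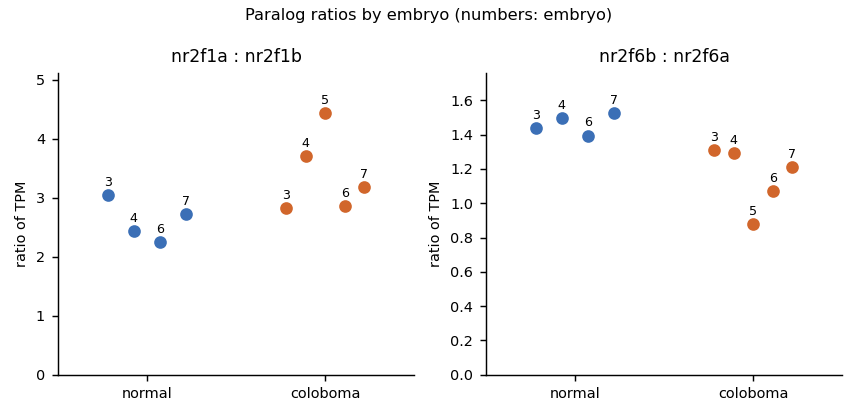
Ratio of TPM within each embryo for nr2f1a over nr2f1b (left) and nr2f6b over nr2f6a (right), with embryo numbers beside the points. The nr2f6b to nr2f6a ratio runs from 1.39 to 1.53 in normal and from 0.879 to 1.31 in coloboma embryos.

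Among the coloboma embryos, embryos 3 and 5 sat at opposite ends for nearly the whole family. With TMM scaling, embryo 3 was the highest coloboma embryo for 6 of 6 members and embryo 5 the lowest for 5 of 6, the exception being nr2f1a. With scaling to total counts or with TPM, embryo 3 was highest for 4 of 6 (not nr2f2 or nr2f5) and embryo 5 remained lowest for 5 of 6. The share of all genes with embryo 3 highest or embryo 5 lowest was not counted. These positions therefore cannot be set against a background or called particular to the family. Embryo 3 had the highest summed skeletal muscle level of the coloboma embryos (88586 CPM, 19 genes) and embryo 5 the lowest (53404 CPM), and their TMM factors were 0.930 and 0.992. Embryo 5 also had the smallest library. The part of muscle content, low lens counts or depth in these positions was not tested. Without embryo 3 the log2 fold change of nr2f1b went to -0.64 (edgeR adjusted p = 0.144), and without embryo 5 to -0.45 (edgeR adjusted p = 0.178).

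Counts and TPM of nr2f2 did not keep a constant ratio among embryos. The ratio of count to TPM reflects the transcript length that the authors' quantification assigned to a gene. Set against the median gene of the embryo and the gene's own mean, it ran from 0.804 to 1.05 for nr2f2, from 0.912 to 1.08 for nr2f6a, and within 0.988 to 1.02 for each of the other 4 members. The spread of nr2f2 exceeded that of 92.5% of 15422 genes compared. Its low values were 0.804 in normal embryo 3 and 0.923 in normal embryo 4, against 0.982 to 1.05 in all others. By TPM, nr2f2 was 72.0 ± 15.8 TPM (SD, n = 4) in the normal group and 61.2 ± 2.91 TPM (SD, n = 5) with coloboma (exact permutation, two-sided, p = 0.151), a wider gap than by counts. TPM also lacks TMM scaling. By edgeR the log2 fold change of nr2f2 was -0.04 with TMM and -0.13 with total counts only. By limma it was -0.006 with voom and -0.21 on the log2(TPM + 1) scale. These fits differ in more than 1 respect, and the parts of scaling, assigned length and fit were not tested. For nr2f1a, nr2f1b, nr2f5 and nr2f6b the assigned length hardly varied.

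Genes around the COUP-TFs in their known pathways were listed and counted in the same fit, with no set test. The lists were chosen with earlier results of these data known. Their counts, and the shares of all genes set beside them, are therefore a description only, for this and every list below. Among other NR2 receptors and RXR genes, 0 of 11 measured passed by edgeR, DESeq2 or voom, and 1 was higher and 1 lower at an unadjusted p under 0.05. The orphan receptor gene nr2c2 was at -0.36 ± 0.13, the hepatocyte nuclear factor hnf4a at 0.33 ± 0.13 and rxrgb at 0.32 ± 0.17 (log2, SE). The median of this list was -0.06. For retinoic acid receptors and the synthesis, breakdown and binding proteins of this ligand, 0 of 19 passed by edgeR, DESeq2 or voom, with 2 higher and 0 lower at an unadjusted p under 0.05. The retinol dehydrogenase gene rdh10a was at 0.26 ± 0.09, and the retinoic acid binding protein genes crabp1b and crabp2b at 0.41 ± 0.17 and -0.25 ± 0.11 (log2, SE). The median was 0.04 and went to -0.01 without coloboma embryo 3 and to -0.14 on the log2(TPM + 1) scale.

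In the eye list (optic stalk, choroid fissure and optic cup regulators) 0 of 24 passed by edgeR, 2 by DESeq2 as lower and 0 by voom, and 21 of 24 values were below 0, where 49.9% of all genes were. At an unadjusted p under 0.05 there were 6 lower and 0 higher, against 4.90% and 6.78% of all genes. The median of -0.23 was -0.17 without coloboma embryo 3. The retinal homeobox gene vsx1 (-0.47 ± 0.10), the ventral eye gene vax2 (-0.99 ± 0.26) and the retinal homeobox gene rx2 (-0.65 ± 0.24) had the smallest p (log2, SE). Of pax6a and pax6b, homologs of the Pax6 gene that COUP-TFs repress in the mouse optic stalk, chosen here after their values were seen, the levels were 102 and 86.0 CPM for pax6a and 16.9 and 12.7 CPM for pax6b (means of normal and coloboma embryos; edgeR adjusted p = 0.609 and 0.534).

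Genes of jaw patterning in arch crest were 22 in number, of which 0 passed by edgeR, 6 by DESeq2 as lower and 0 by voom, and 10 were lower and 1 higher at an unadjusted p under 0.05. Their median was -0.30, and 5 of 22 had coloboma embryos entirely below normal ones by CPM (2.16% of all genes). The homeobox genes dlx4a (-0.69 ± 0.15), prrx1b (-0.35 ± 0.08) and dlx2a (-0.69 ± 0.16) had the smallest p (log2, SE). Neural crest genes had a median of -0.04, with 0 of 16 passing by edgeR, 3 lower by DESeq2 and 0 by voom, and 7 lower at an unadjusted p under 0.05. Without coloboma embryo 3 the median was -0.20. There alx1 (-1.03 ± 0.25), alx4a (-0.50 ± 0.13) and pax7a (-0.40 ± 0.11), all homeobox genes, led (log2, SE).

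The vessel list, in which nr2f2 and nr2f1b have known roles on the venous and lymphatic side, had values on the other side of 0. None of its 23 genes passed by edgeR or voom and 5 passed by DESeq2 as higher, with 17 above 0 and a median of 0.14. At an unadjusted p under 0.05, 9 were higher and 2 lower, and 7 of 23 had all coloboma embryos above all normal ones by CPM, where 2.27% of all genes did. The median was 0.06 with total counts only and 0.04 on the log2(TPM + 1) scale, with 6 genes higher at an unadjusted p under 0.05 in each. The share of all genes under 0.05 was not counted for these settings. The scavenger receptor gene stab2, a venous marker, averaged 75.4 CPM in normal and 116 CPM in coloboma embryos (log2 fold change 0.62 ± 0.13, SE; edgeR adjusted p = 0.103). The receptor genes kdr and mrc1a were at 0.45 ± 0.09 and 0.62 ± 0.15 (log2, SE; edgeR adjusted p = 0.108 and 0.154). The venous receptor gene flt4, chosen after its value was seen, was at 0.09 ± 0.08 (log2, SE).

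Heart chamber genes had a median of -0.06, which went to 0.02 without coloboma embryo 3. Of 16, 0 passed by edgeR, 1 by DESeq2 as lower and 0 by voom, and 2 were lower at an unadjusted p under 0.05. The natriuretic peptide gene nppa was at -0.79 ± 0.21, bmp10 at -0.85 ± 0.38 and the early heart gene nkx2.7 at 0.36 ± 0.22 (log2, SE). The level of bmp10 was low, with means of 0.386 CPM in normal and 0.213 CPM in coloboma embryos. Of 16 hindbrain segment genes, 0 passed by edgeR, DESeq2 or voom, 1 was higher and 2 lower at an unadjusted p under 0.05, and the median was -0.12. Without coloboma embryo 3 the median was -0.21, with 0 higher and 5 lower. The Eph receptor gene epha4a was at -0.23 ± 0.08, hoxa2b at -0.34 ± 0.15 and mafba at 0.31 ± 0.14 (log2, SE). Skeletal muscle had a median of 0.62, and 1 of 19 genes passed by edgeR (myhz1.2, higher), 11 by DESeq2 and 1 by voom, all higher. At an unadjusted p under 0.05, 16 of 19 were higher and 0 lower. With embryos left out singly, no muscle gene passed by edgeR except without normal embryo 4 (1 gene) or coloboma embryo 5 (3 genes), and the median without coloboma embryo 3 was 0.55. Red cell genes, 7 in number, had a median of -0.48, with 0 passing by edgeR, DESeq2 or voom and 2 lower at an unadjusted p under 0.05. Without coloboma embryo 3 their median was -0.67, with 5 lower. The 17 lens genes had a median of 0.31, with 0 passing by edgeR, DESeq2 or voom and 1 lower at an unadjusted p under 0.05, and the median was -0.40 with voom. Without coloboma embryo 3 the lens median was 0.59, with 13 of 17 higher and 1 lower at an unadjusted p under 0.05. The share of all genes under 0.05 was not counted without coloboma embryo 3. The hindbrain, red cell and lens counts in that setting therefore cannot be set against a background.

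**Figure D5:**
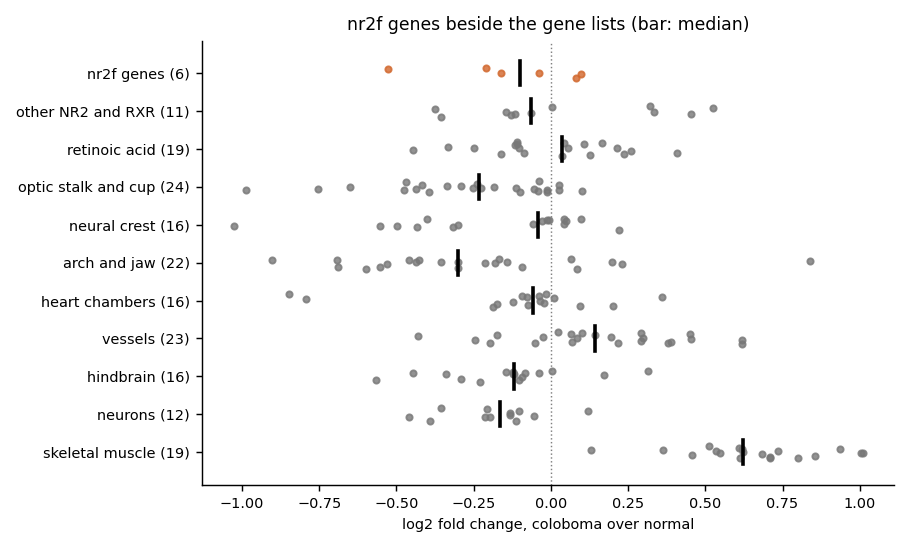
Log2 fold change, coloboma over normal, of the 6 nr2f genes (orange) and of the genes of 10 lists (grey, number of genes in brackets), with list medians as black bars. The dotted line is the median of all genes tested. The nr2f median of -0.10 lies between the eye (-0.23) and retinoic acid (0.04) lists.

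The genes whose embryo-to-embryo pattern was most like each member were found by Pearson's r of log2 CPM over the 9 embryos after removing group means, among 12634 genes with a proper symbol and a mean of at least 1 CPM. High values are bound to occur in so large a search over 9 points that share library scaling and depth, so they are given as a description. For nr2f1a they were hmp19, nell2b and aebp1 (r = 0.97, 0.97 and 0.96). For nr2f1b they were prkar1aa, gas1a and phldb1a (r = 0.98, 0.96 and 0.96), of which gas1a encodes a hedgehog co-receptor, and none of these followed its group difference (log2 fold changes of -0.02, -0.11 and 0.02). For nr2f2 they were prrc2c and the histone acetyltransferase genes kat6b and ep300a (r = 0.99, 0.98 and 0.98). For nr2f5 they were eya1, actn3b and neurl1b (r = 0.99, 0.98 and 0.98), of which eya1 is a developmental cofactor gene and actn3b encodes a muscle actinin. For nr2f6a they were abi2b, kdm4b and irf2bpl (r = 0.98, 0.98 and 0.97), and for nr2f6b ap4b1, ntn2 and spred1 (r = 0.97, 0.96 and 0.96). None of these 18 genes passed the comparison of coloboma with normal embryos by edgeR.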

How the data were processed

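The authors deposited one table of estimated counts (expected counts, taken as rounded RSEM output because the values are whole and RSEM is named) and one of TPM, per gene symbol and embryo. Bowtie 1.1.1, RSEM 1.2.18, CASAVA 1.8.2 and the build Zv9 appear in the submitters' processing notes. The annotation was not given in the sources used here. Libraries were made with the Illumina TruSeq kit, per the labels' protocols, which does not mark strand. In the RefSeq gene table of assembly GRCz12tu, 1 lncRNA each overlaps nr2f1b and nr2f2 and 1 protein-coding gene overlaps nr2f6b, so their reads cannot be told apart by strand. No member lies on chromosome 9 (zic2a) or 1 (zic2b) there. RSEM divides reads shared by paralogs by a model.

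Counts were tested with edgeR 4.0.16 (R 4.3.3; filterByExpr with minimum count 10, TMM, quasi-likelihood, no covariate), with Benjamini-Hochberg over 21293 genes and a threshold of 0.05. Alternatives used DESeq2 1.42.0 and limma 3.58.1. Log2 CPM used a prior count of 2, and TPM a pseudocount of 1 or 0.1. Intervals have a confidence level of 95%. The scripts were tested on simulated data. Members and the 12 gene lists were chosen with earlier results of these data known. Of 210 list entries, 197 matched by symbol, 5 by a RefSeq synonym and 8 not. Named were all members, the 3 list genes of smallest p in most lists, and the 3 genes most like each member. Other genes are said to be chosen afterwards. Single neuron, lens and red cell genes are not named, and of the skeletal muscle list only myhz1.2 is. All pairs of embryos within a group differed beyond sampling noise (chi-square per degree of freedom 26.8 to 78.5).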

Additional observations from a re-analysis of the deposited data

Results flagged for a closer look

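For nr2f1a by TPM, coloboma embryo 6 (45.1 TPM) lay apart from the other 4 coloboma embryos, the nearest of which was at 52.8 TPM. The gap was 0.787 of the whole range of the group, above Dixon's 95% limit for 5 samples. By CPM no embryo was set apart in this way. Of the 24 groups examined (6 genes, 2 groups, 2 scales), chance sets apart about 1 in 20. Without coloboma embryo 6 the log2 fold change of nr2f1a was -0.10 (edgeR adjusted p = 0.731).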

How the results depend on the processing

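Over 18 alternative settings the log2 fold changes of nr2f1a (-0.25 to -0.10), nr2f1b (-0.64 to -0.41), nr2f6a (0.01 to 0.16) and nr2f6b (-0.31 to -0.12) kept their sign. The only call of a member was nr2f1b with DESeq2 (-0.53), where 1 member and 578 genes passed against 0 and 44. An adjusted p of 0.1 gave 86 genes and 0 members. With embryos left out singly, calls ran from 21 to 235 genes, the highest without coloboma embryo 5 and the lowest without normal embryo 3 or coloboma embryo 4. They were 25 without normal embryo 6 and 27 without normal embryo 7. The value of nr2f2 ran from -0.17 to 0.10 there, and was above 0 without normal embryo 6 or 7 or coloboma embryo 5. That of nr2f5 was -0.0018 with total counts, -0.0030 with log2(TPM + 1), with or without the filter, and -0.0032 with log2(TPM + 0.1). Without coloboma embryo 3 the median of the retinoic acid list was -0.012 and that of the heart list 0.015. The cause of these shifts was not tested.

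The replicate block on embryo numbers gave 17 genes, 0 members and 0.032 for nr2f2. Deviations of embryos with the same number correlated at -0.10, 0.14, 0.06 and 0.05, and 1 of 4 normal embryos was nearest to its own number, so the numbers were not taken to pair the embryos. The parts of counting error and of the spread between embryos in the tests of the members were not separated. The lowest count was 480 (nr2f1b, coloboma embryo 5). That spread holds differences between animals and between libraries, and their parts cannot be told apart.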
